A study of Homo sapiens with 4 samples.

Results

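The genes described here are 10 components and readouts of the Wnt/beta-catenin pathway: the target and feedback genes AXIN2, LGR5, NKD1, ASCL2, RNF43 and ZNRF3, the DNA-binding factors TCF7, LEF1 and TCF7L2, and CTNNB1, which encodes beta-catenin. They were chosen by name, with earlier results of these data known, and make up 10 of the 58735 gene identifiers measured in the series. All 10 were found, and 7 of them were among the 14523 genes tested, those averaging 1 FPKM or more over the libraries (FPKM are fragments scaled to gene length and to sequencing depth). LGR5, ASCL2 and LEF1 lay below that level in all 4 libraries.

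The series asks how gene expression in HCT116 cells, an established human colorectal cancer line, differs after KIF26B, a kinesin family gene, is targeted by siRNA. RNA was sequenced from 2 libraries of cells transfected with a control siRNA (NC rep1 and NC rep2) and from 2 libraries labelled as transfected with siRNA against KIF26B (KIF-si rep1 and KIF-si rep2), all at 48 h. All 4 libraries share the line and therefore its mutant CTNNB1 allele, which encodes a beta-catenin lacking a degradation signal. The study used more than 1 siRNA against KIF26B, and which of them each library received is not stated in the sources used here. The deposited column headings of the libraries labelled KIF26B siRNA carry different knockdown numbers, K_KD1_2 for rep1 and K_KD2 for rep2. Their meaning is not given, nor is it stated why the heading of rep1 carries a further number. A difference between siRNAs and one between replicates therefore cannot be told apart. It is also not stated that the 2 libraries of a group came from separate cultures, so p-values measure only the spread between these libraries. The test used below, limma, takes part of each gene's spread from all genes tested.

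In Wnt/beta-catenin signalling, a destruction complex built on AXIN proteins marks beta-catenin for degradation, and Wnt ligands acting through Frizzled and LRP receptors stop it. Beta-catenin then enters the nucleus and binds TCF/LEF factors on the promoters and enhancers of target genes, several of which encode inhibitors that feed back on the pathway. In the intestine the pathway maintains the stem cells at the base of the crypts, and it is activated in most colorectal cancers.

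The reads recovered from the deposited values summed to 18760577 in the library labelled KIF-si rep2, the fewest, and to 24295104 in NC rep2, the most. The values were scaled to divisors of which these sums made up 97.8% to 98.7% in 3 libraries and 103.8% in KIF-si rep2. The recovery can be wrong for some genes, and whether the divisors were the library totals was not tested. KIF26B itself was at 0.110 and 0.205 FPKM in the control libraries, 0.140 in the library labelled KIF-si rep1 and 0.0307 in the library labelled KIF-si rep2. These levels stood on 31, 73, 43 and 8 reads. The value of KIF-si rep1 thus lay between the controls, and only that of KIF-si rep2 lay below both. Of 9 epithelial and colonic markers, 6 reached 1 FPKM, with a sum of 1564 to 1696 FPKM per library, while VIL1 and KRT20 stayed below 1 and CDX1 was at 0 in every library. Of 7 markers of other cell types found, only COL1A1 reached 1 FPKM, the sum being 5.00 to 8.83, and CD3E was at 0 in every library.

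No member differed between the groups at an unadjusted p below 0.05 (limma on log2(FPKM + 1), 0 of 7 tested, against 16.4% of all 14523 genes), and none passed it with a log2 difference beyond 1 (0.606% of all genes did so lower and 0.813% higher). The libraries labelled KIF26B siRNA did not go the same way. AXIN2 was lower and TCF7L2 was higher in both of them than in both controls. RNF43, ZNRF3, TCF7 and CTNNB1 were above both controls in KIF-si rep1 and below both in KIF-si rep2. After Benjamini-Hochberg adjustment no gene of the 14523 passed 0.05 in limma, the smallest adjusted p being 0.242, and none passed with limma-voom on recovered reads, which also called 0 of the 7 members at an unadjusted p below 0.05. An exact permutation test of 2 against 2 libraries cannot give a two-sided p below 0.33.

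The members spanned a wide range of levels in the control libraries. CTNNB1 was the most abundant, at 33.2 and 32.3 FPKM, above 91.8% of the tested genes by its control mean. TCF7L2, at 24.7 and 23.7 FPKM, stood at the 88.1 percentile. The other tested members lay in the lower part of the distribution, in the order ZNRF3 (45.3 percentile), AXIN2 (40.5), TCF7 (38.2), RNF43 (32.6) and NKD1 (29.0). Neighbours in this order did not overlap in the control libraries. Over all 4 libraries each gene overlapped its neighbour, except TCF7L2 and ZNRF3. The order of genes also depends on the length by which each gene was divided, which need not be that of the mRNA present.

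**Figure D1:**
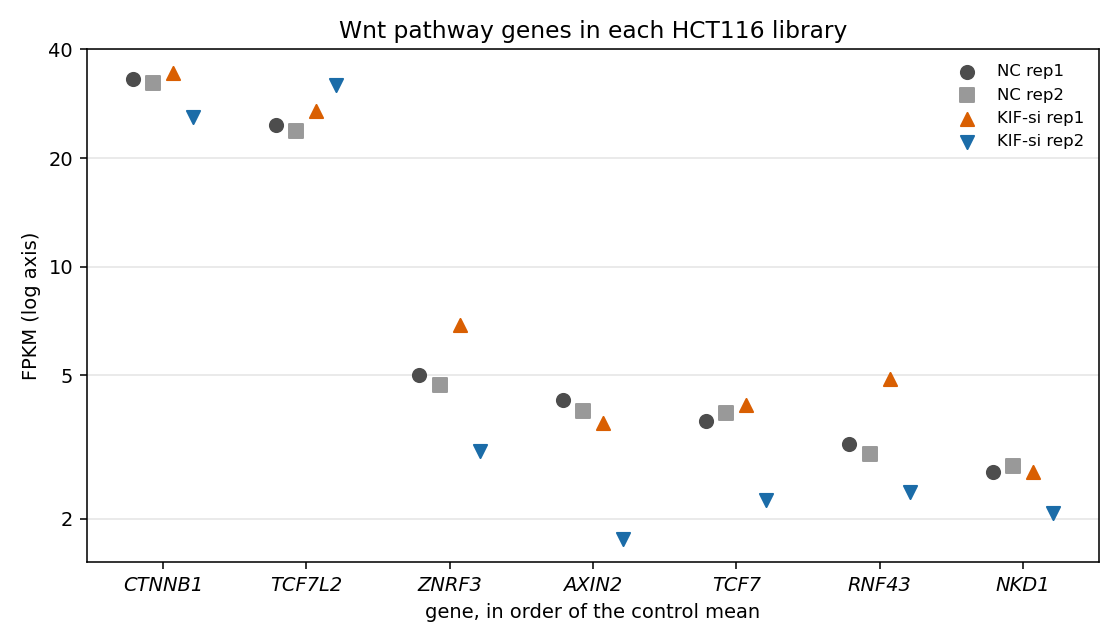
FPKM (log axis) of the 7 tested members in each of the 4 libraries, in order of the control mean; each point is 1 library. The control points of each gene lie close together, whereas the points of the libraries labelled KIF-si rep1 and rep2 lie apart, with rep2 the lowest of the 4 for every gene except TCF7L2, where it is the highest at 31.8 FPKM.

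AXIN2, which encodes a scaffold of the destruction complex and is a direct target widely used as a readout of the pathway, had the most negative difference of the 7 (ENSG00000168646, chromosome 17, 65528563 to 65561648 in GRCh38.p14). It was at 4.27 and 3.99 FPKM in the controls, 3.70 in KIF-si rep1 and 1.76 in KIF-si rep2, on 438, 514, 413 and 166 reads. Both libraries labelled KIF26B siRNA were below both controls, and most of the difference lay in KIF-si rep2. The group means were 4.13 ± 0.200 and 2.73 ± 1.37 FPKM (SD, n = 2 each), a difference of -0.51 on the log2(FPKM + 1) scale (SE 0.29, 95% interval -1.33 to 0.31, limma, adjusted p = 0.448). Of all tested genes, 27.8% were likewise lower in both libraries, without overlap. Taken as a ratio of read rates, per the divisors of the deposited values, to both controls pooled, AXIN2 stood at 0.900 in KIF-si rep1 (95% interval 0.800 to 1.01) and at 0.428 in KIF-si rep2 (0.360 to 0.505). The control libraries stood to each other at 0.934 (0.820 to 1.06). These intervals cover counting error only, so a ratio below 1 describes that library and not the treatment.

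NKD1, which encodes a cytoplasmic inhibitor that acts on Dishevelled, was at 2.69 and 2.80 FPKM in the controls, 2.69 in KIF-si rep1 and 2.08 in KIF-si rep2 (ENSG00000140807, chromosome 16, 50548396 to 50649249). KIF-si rep1 fell within the range of the controls and KIF-si rep2 below it. The difference between the groups was -0.15 (log2(FPKM + 1), SE 0.14, 95% interval -0.55 to 0.24, limma, adjusted p = 0.629). The read-rate ratio to the pooled controls was 0.978 (0.906 to 1.05) in KIF-si rep1 and 0.756 (0.691 to 0.825) in KIF-si rep2.

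RNF43 and ZNRF3 encode related membrane E3 ubiquitin ligases that remove Frizzled receptors from the cell surface. RNF43 was at 3.23 and 3.03 FPKM in the controls, 4.88 in KIF-si rep1 and 2.38 in KIF-si rep2 (ENSG00000108375, chromosome 17, 58352500 to 58417534). ZNRF3 was at 5.02 and 4.69 FPKM in the controls, 6.87 in KIF-si rep1 and 3.08 in KIF-si rep2 (ENSG00000183579, chromosome 22, 28883572 to 29057488). For both genes the controls lay between the libraries labelled KIF26B siRNA. RNF43 therefore had group means of 3.13 ± 0.142 and 3.63 ± 1.76 FPKM (SD, n = 2 each) and a difference of 0.11 on the log2 scale (SE 0.30, 95% interval -0.73 to 0.95, limma, adjusted p = 0.874). ZNRF3 had means of 4.85 ± 0.231 and 4.98 ± 2.68 FPKM and a difference of -0.05 (SE 0.35, 95% interval -1.03 to 0.93, limma, adjusted p = 0.957). The controls of both genes lay close together, so the spread behind these intervals was that between KIF-si rep1 and KIF-si rep2.

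The proportion of the pair was also compared within each library. The ratio of RNF43 to ZNRF3 in FPKM was 0.644 and 0.646 in the controls, 0.710 in KIF-si rep1 and 0.773 in KIF-si rep2. It was thus above both controls in both libraries labelled KIF26B siRNA, a difference that was not tested. Their sum was 8.25 and 7.72 FPKM in the controls, 11.7 in KIF-si rep1 and 5.46 in KIF-si rep2. The sum thus moved over a wider range than the ratio. An antisense gene lies over each of them, and the sources used here do not say whether fragments were assigned by strand, so reads of the partners cannot be told apart. TSPOAP1-AS1, which overlaps RNF43, held 20, 36, 55 and 8 reads in the 4 libraries in the same order, against 420, 495, 690 and 285 for RNF43. ZNRF3-AS1 held 11, 18, 24 and 3 reads, against 686, 806, 1023 and 388 for ZNRF3.

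LGR5 encodes an R-spondin receptor that marks intestinal stem cells, and ASCL2 encodes a transcription factor of the same cells. LGR5 was read 6, 0, 4 and 4 times in NC rep1, NC rep2, KIF-si rep1 and KIF-si rep2, and ASCL2 0, 0, 2 and 0 times. The highest level of either was 0.0582 FPKM, for LGR5 in NC rep1. Counts this low are at or near the limit of 3 reads that a count of 0 allows, so no fold change is given and no difference was detectable at this depth.

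The TCF/LEF factors carry the transcriptional output of beta-catenin, and TCF7L2 is the member known to predominate in colonic epithelium. TCF7L2 was at 24.7 and 23.7 FPKM in the controls, 27.0 in KIF-si rep1 and 31.8 in KIF-si rep2 (ENSG00000148737, chromosome 10, 112950247 to 113167678). Both libraries labelled KIF26B siRNA were above both controls, a pattern shared by 24.9% of all tested genes. The means were 24.2 ± 0.710 and 29.4 ± 3.42 FPKM (SD, n = 2 each), a difference of 0.26 on the log2(FPKM + 1) scale (SE 0.14, 95% interval -0.11 to 0.64, limma, adjusted p = 0.407). By read rate against the pooled controls it stood at 1.12 (1.07 to 1.16) in KIF-si rep1 and 1.32 (1.27 to 1.37) in KIF-si rep2.

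TCF7 encodes TCF-1, whose gene is itself activated by beta-catenin in intestinal cells. It was at 3.73 and 3.92 FPKM in the controls, 4.15 in KIF-si rep1 and 2.25 in KIF-si rep2, on 736, 974, 892 and 410 reads (ENSG00000081059, chromosome 5, 134108218 to 134148210). KIF-si rep1 was the highest of the 4 and KIF-si rep2 the lowest. The group means were 3.82 ± 0.139 and 3.20 ± 1.34 FPKM, and the difference of -0.24 had an SE of 0.26 (95% interval -0.95 to 0.48, limma, adjusted p = 0.675). The read-rate ratio was 1.08 (0.997 to 1.17) in KIF-si rep1 and 0.588 (0.527 to 0.655) in KIF-si rep2. SKP1, which overlaps the TCF7 locus, held 2683, 3484, 2775 and 2674 reads, and its part in the TCF7 values was not tested.

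LEF1 encodes the factor of this family best known from lymphocytes. It was read 4 and 2 times in the controls and 0 times in both libraries labelled KIF26B siRNA. The control values lie within or just above the 3 reads that a count of 0 allows, so no difference was detectable at this depth.

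FPKM values are scaled to gene length, so the 4 family members were set side by side as shares of their sum, TCF7L1 being added to the 3 listed factors. The recovered lengths were 10063 bases for TCF7, 6736 for TCF7L2 and 4414 for TCF7L1. Where the mRNA present is shorter than this length, the share is understated, which was not tested. Shares of the same factor can still be compared between libraries if its mRNA forms are alike. TCF7L2 made up 73.6% and 72.5% of the summed FPKM in the controls, 73.3% in KIF-si rep1 and 80.3% in KIF-si rep2. TCF7 made up 11.1% and 12.0% in the controls, 11.3% in KIF-si rep1 and 5.68% in KIF-si rep2. KIF-si rep1 thus had the family composition of the controls, whereas in KIF-si rep2 the share of TCF7 was below and that of TCF7L2 above the other 3 libraries. TCF7L1, which mostly acts as a repressor, held 15.1%, 15.5%, 15.5% and 14.1%, and LEF1 at most 0.113%. The ratio of TCF7L2 to TCF7 was 6.64 and 6.05 in the controls, 6.51 in KIF-si rep1 and 14.1 in KIF-si rep2. The mean share of TCF7 was 11.5% ± 0.626 in the controls and 8.47% ± 3.94 in the libraries labelled KIF26B siRNA (SD, n = 2 each), so the groups overlapped.

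**Figure D2:**
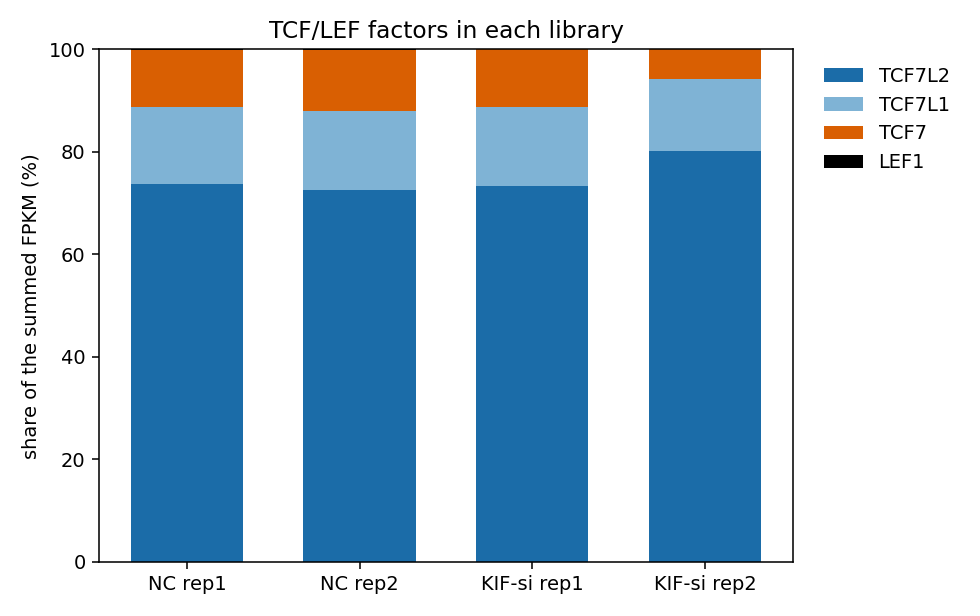
Share (%) of each TCF/LEF factor in the summed FPKM of TCF7, TCF7L1, TCF7L2 and LEF1, 1 bar for each library; LEF1, at most 0.113%, is too small to be seen. The bars of the controls and KIF-si rep1 are alike, with TCF7 between 11.1% and 12.0%, and TCF7 takes 5.68% in KIF-si rep2.

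CTNNB1, which encodes beta-catenin, the factor controlled mainly through its degradation, was at 33.2 and 32.3 FPKM in the controls, 34.4 in KIF-si rep1 and 25.9 in KIF-si rep2 (ENSG00000168036, chromosome 3, 41199505 to 41240443). The controls again lay between the libraries labelled KIF26B siRNA. The group means were 32.7 ± 0.593 and 30.2 ± 6.01 FPKM, with a difference of -0.13 (log2(FPKM + 1), SE 0.18, 95% interval -0.62 to 0.36, limma, adjusted p = 0.745). CTNNB1 rested on 5592 to 9511 reads per library, the most of any member, and its read-rate ratio was 1.05 (1.03 to 1.08) in KIF-si rep1 and 0.794 (0.770 to 0.818) in KIF-si rep2. These are levels of mRNA, and beta-catenin protein was not measured in these libraries.

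Across the members, the spread lay within the libraries labelled KIF26B siRNA. The control libraries differed by a median of 0.06 on the log2(FPKM + 1) scale over the 7 members, and by 0.07 over all tested genes. KIF-si rep1 and KIF-si rep2 differed by a median of 0.66 over the members and 0.28 over all tested genes. KIF-si rep2, which had the lowest KIF26B level and the fewest reads, was the lowest of the 4 libraries for 6 of the 7 members, against 32 of 62 tested genes in the rest of the pathway and 31.5% of all tested genes. KIF-si rep1 was the highest for 4 of the 7, against 26.4%. For the 4 genes RNF43, ZNRF3, TCF7 and CTNNB1 it was above and KIF-si rep2 below both controls, an arrangement seen in 12.3% of all tested genes. These arrangements were singled out after the values were seen, and the members belong to 1 pathway and share the same libraries, so they are not independent of each other. The part of the siRNA used, the level of KIF26B and the depth in this spread was not tested.

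**Figure D3:**
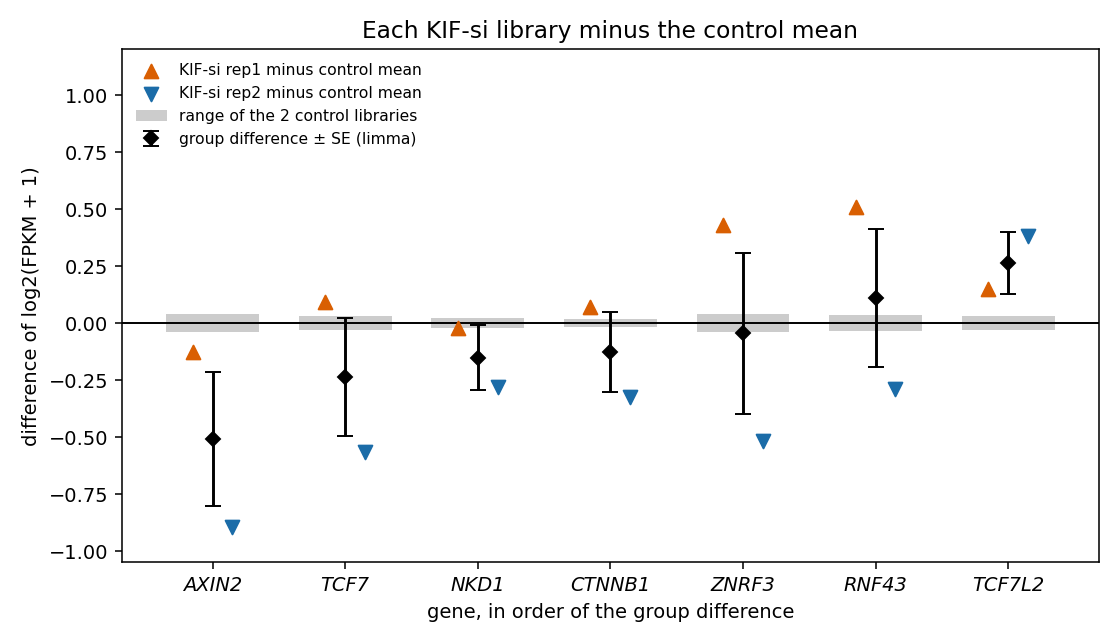
Difference of log2(FPKM + 1) from the control mean for the library labelled KIF-si rep1 (upward triangles), the library labelled KIF-si rep2 (downward triangles) and the group (diamonds, with limma's SE as bars); grey boxes span the control libraries. AXIN2 reaches -0.89 and TCF7L2 0.38 in KIF-si rep2, and for RNF43, ZNRF3, TCF7 and CTNNB1 the triangles fall on opposite sides of the controls.

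Set against the controls alone, each of these libraries gave other calls. Without KIF-si rep1, limma gave an adjusted p of 0.0463 for AXIN2 and 0.0478 for TCF7, both lower, which is 2 of 7 members against 17.3% of all tested genes. In that fit all 7 members passed an unadjusted p of 0.05, against 46.6% of all tested genes. Of these, 6 were lower, against 23.7%, and TCF7L2 was higher, against 22.9%. Without KIF-si rep2, RNF43 and ZNRF3 were higher at an unadjusted p below 0.05 in limma, 2 of 7 against 17.5% of all tested genes higher, and no gene passed the adjusted threshold. Each fit rests on 1 library against 2, with the lone library assumed to vary like the controls.

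A beta-catenin target can carry the core TCF/LEF motif in its promoter, although many respond through distant enhancers. Promoter windows of 250 bases before to 50 after the transcription start, from RefSeq in GRCh38.p14, were found for 5 of the 10 members, in 9 windows, and were searched on both strands for CTTTGAT and CTTTGAA. Either motif occurred in 6.86% of all 35116 windows (2.62% held CTTTGAT and 4.43% CTTTGAA), and in 0 of the 9 windows of members. The target SP5, described below, had 3 matches. The SP5 window (chr2:170715087-170715386, plus strand) is shown, with 1 of 2 windows each of RNF43 (chr17:58417485-58417784, minus strand) and TCF7 (chr5:134115363-134115662, plus strand). Both TCF7 windows lie within the gene span given above. SP5, RNF43 and TCF7 were picked after their values were seen. All were lowest in KIF-si rep2 but went different ways in KIF-si rep1. The windows of EPHB3, ZCCHC12, FZD1, FZD5, GSK3A and TNKS2, lower in both libraries labelled KIF26B siRNA, held 0 matches. Those of AXIN1 and TLE5, higher in both, also held 0. A link between motifs and levels was not tested. Capitals mark a motif or its reverse complement (TTCAAAG for CTTTGAA), and the sequences run 5′ to 3′ in the direction of the gene.
SP5: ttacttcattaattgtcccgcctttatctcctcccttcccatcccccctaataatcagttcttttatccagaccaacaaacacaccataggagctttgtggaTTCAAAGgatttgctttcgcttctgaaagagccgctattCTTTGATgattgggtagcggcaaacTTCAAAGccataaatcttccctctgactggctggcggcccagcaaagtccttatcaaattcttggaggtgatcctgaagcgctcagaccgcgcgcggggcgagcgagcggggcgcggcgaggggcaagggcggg
RNF43: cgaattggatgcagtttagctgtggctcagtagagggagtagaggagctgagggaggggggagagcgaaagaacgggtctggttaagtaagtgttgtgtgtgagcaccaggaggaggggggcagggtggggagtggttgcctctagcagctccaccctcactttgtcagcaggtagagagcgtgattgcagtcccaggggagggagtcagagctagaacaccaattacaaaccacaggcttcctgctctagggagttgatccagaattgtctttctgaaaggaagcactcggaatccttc
TCF7: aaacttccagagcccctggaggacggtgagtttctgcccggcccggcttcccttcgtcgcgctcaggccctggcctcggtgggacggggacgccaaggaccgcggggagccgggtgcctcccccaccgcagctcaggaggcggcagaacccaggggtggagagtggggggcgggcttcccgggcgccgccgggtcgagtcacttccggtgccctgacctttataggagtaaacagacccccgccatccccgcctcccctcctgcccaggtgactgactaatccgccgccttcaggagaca
The SP5 window held both motifs within a short stretch, and the windows of RNF43 and TCF7 held no match to these letters.

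In the rest of the pathway, taken as 5 lists by role with 88 genes of which 62 were tested, 8 genes were lower and 3 higher at an unadjusted p below 0.05 (limma), against 8.68% and 7.74% of all tested genes. None passed after adjustment. These lists, too, were chosen with earlier results of these data known, so the counts do not stand apart from the data. With the replicate number as a block, 0 of the 7 members and 11.9% of all tested genes passed an unadjusted 0.05 in limma. The median difference over the 62 genes was -0.14 on the log2(FPKM + 1) scale, beside -0.13 for the 7 members and -0.01 for all tested genes. Of the 62, 42 lay below 0 and 20 above it, beside 7490 below and 7033 above among all 14523 tested genes. The 62 genes share the same libraries, so they are not independent of each other. Both controls lay between the libraries labelled KIF26B siRNA for 15 of the 62, compared with 4 of the 7 members and 26.3% of all tested genes.

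**Figure D4:**
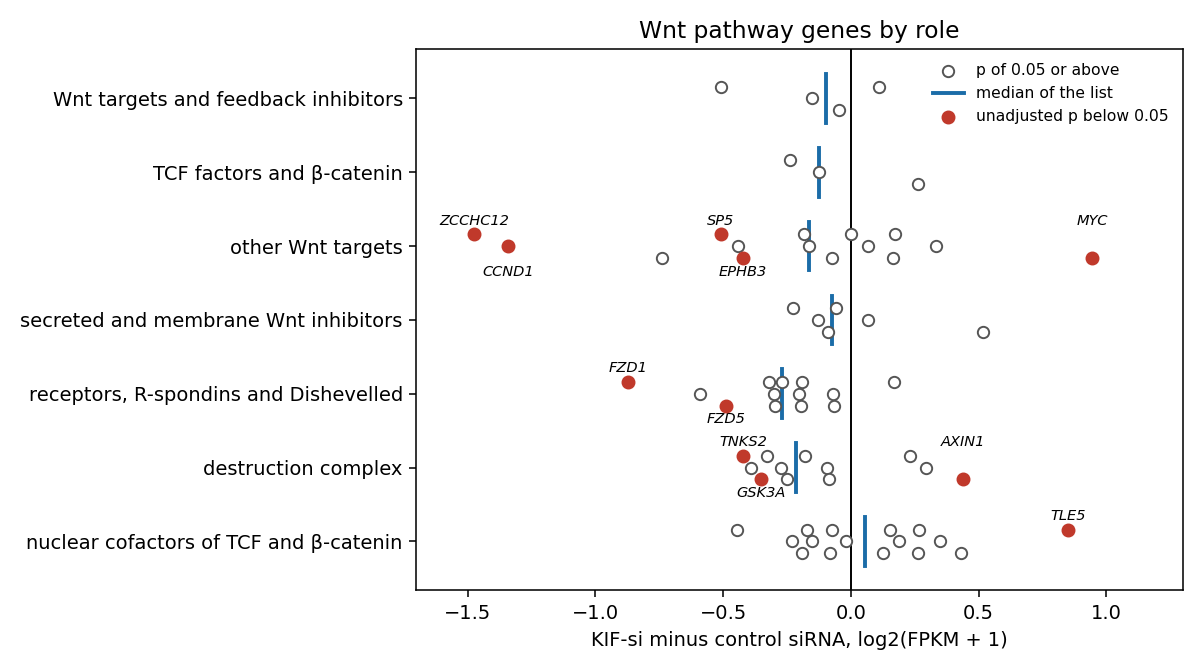
Difference between the groups on the log2(FPKM + 1) scale for each tested gene of the pathway, by role. Each point is 1 gene, bars are list medians, and named filled points have an unadjusted limma p below 0.05. All 7 members are open points, while CCND1 and ZCCHC12 lie below -1 and MYC and TLE5 lie highest, at 0.94 and 0.85.

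Among 20 other reported Wnt targets, 15 were tested, with a median difference of -0.16. At an unadjusted p below 0.05, 4 were lower and 1 was higher, against 8.68% and 7.74% of all tested genes. CCND1, which encodes cyclin D1, was at 358.0 and 361.1 FPKM in the controls, 106.8 in KIF-si rep1 and 187.0 in KIF-si rep2. This is a difference of -1.34 (SE 0.30, limma, adjusted p = 0.247), and here KIF-si rep1 was the lower of the pair. ZCCHC12 was at 4.18 and 3.87 FPKM in the controls and at 1.26 and 0.447 in the libraries labelled KIF26B siRNA, a difference of -1.47 (SE 0.25, limma, adjusted p = 0.242). MYC, the growth regulator, was at 78.5 FPKM in both controls and higher in the other libraries, at 146.1 and 157.9, a difference of 0.94 (SE 0.11, limma, adjusted p = 0.242). Targets named together as readouts of beta-catenin thus lay on both sides of the controls, and for these 3 genes, unlike RNF43, ZNRF3, TCF7 and CTNNB1, both libraries labelled KIF26B siRNA lay on the same side.

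SP5, a transcription factor gene induced directly by beta-catenin, was at 1.66 and 1.69 FPKM in the controls, 1.11 in KIF-si rep1 and 0.672 in KIF-si rep2, a difference of -0.51 (SE 0.16, limma, adjusted p = 0.281). It rested on only 25 to 86 reads per library. EPHB3, an ephrin receptor that positions cells in the crypt, was at 5.22, 4.47, 3.33 and 3.38 FPKM, a difference of -0.42 (SE 0.13, limma, adjusted p = 0.273). As for AXIN2, both groups were apart without overlap, but for EPHB3 the libraries labelled KIF26B siRNA were alike. With the replicate number as a block, SP5 and EPHB3 no longer passed an unadjusted 0.05 in limma.

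Of 21 genes for receptors, R-spondins and Dishevelled proteins, 13 were tested, with a median difference of -0.27. In this list 2 were lower, against 8.68% of all tested genes, and none was higher, against 7.74%. FZD1 and FZD5, the Frizzled receptors that passed the unadjusted threshold, belong to the family on which RNF43 and ZNRF3 act. FZD1 was at 4.28 and 4.05 FPKM in the controls, 2.41 in KIF-si rep1 and 1.34 in KIF-si rep2 (difference -0.87, SE 0.22, limma, adjusted p = 0.253). FZD5 was at 6.47, 5.75, 4.52 and 3.63 FPKM (difference -0.49, SE 0.15, limma, adjusted p = 0.274). Both receptors were below both controls in KIF-si rep1, where RNF43 and ZNRF3 were above them. In KIF-si rep2 the receptors, RNF43 and ZNRF3 were all below both controls. These are levels of mRNA, whereas the ligases act on receptor protein, and a link between them was not tested.

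Among 13 genes of the destruction complex and its regulators, 12 were tested, with a median difference of -0.22. Here 2 were lower and 1 was higher, against 8.68% and 7.74% of all tested genes. AXIN1, the paralogue of AXIN2 and core scaffold of the complex, was at 3.42 and 3.25 FPKM in the controls, 4.74 in KIF-si rep1 and 5.02 in KIF-si rep2, a difference of 0.44 (SE 0.11, limma, adjusted p = 0.253). AXIN2 and AXIN1 thus lay on opposite sides of the controls in both libraries. GSK3A, a kinase that phosphorylates beta-catenin, had a difference of -0.35 (limma, adjusted p = 0.288), and TNKS2, a tankyrase that destabilises AXIN, one of -0.42 (limma, adjusted p = 0.293). With the replicate number as a block none of the 3 passed an unadjusted 0.05 in limma.

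Of 18 nuclear cofactors of TCF and beta-catenin, 16 were tested, with a median difference of 0.05. Only 1 passed the unadjusted threshold, and it was higher, against 7.74% of all tested genes. This was TLE5, a short member of the TLE corepressor family, at 16.0 and 16.6 FPKM in the controls and 29.1 and 31.4 in the libraries labelled KIF26B siRNA (difference 0.85, SE 0.11, limma, adjusted p = 0.242). Among 16 secreted and membrane inhibitors of Wnt signalling, 6 were tested and none passed the unadjusted threshold in either direction, with a median of -0.07. The low number tested shows that 10 of these inhibitors averaged below 1 FPKM, as LGR5, ASCL2 and LEF1 did.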

How the data were processed

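Poly(A) RNA of HCT116 cells was sequenced as paired reads. The submitters' processing notes name HISAT2 2.0.5 and featureCounts 1.5.0-p3, and the authors deposited 1 table of FPKM per library. The study's methods name hg19 and its processing notes hg38, so positions were taken from RefSeq GRCh38.p14 by symbol. Symbols matched 56513 of 58735 identifiers in GENCODE lifted to GRCh37.

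Genes averaging 1 FPKM or more were tested with limma 3.58.1 (R 4.3.3) on log2(FPKM + 1), 2 control against 2 KIF26B siRNA libraries, without a block and with Benjamini-Hochberg adjustment over 14523 genes. Whole reads, with a gene length that fits all libraries, were recovered from the steps of the FPKM values for 99.6% of genes above 0, within 0.01 reads, and gave the read rates, their exact 95% intervals and a limma-voom alternative. A multiple of a length also gives whole reads, so reads and length were reduced to lowest terms unless the length was the annotated one, and the choice can be wrong for some genes. At their annotated lengths, 87.5% to 88.5% of single-exon genes gave whole reads. Alternatives were another pseudocount, other filters, median-of-ratios scaling, a replicate block and leaving out each library.

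The named genes were the members and, in each list, those at an unadjusted p below 0.05, with TCF7L1 and KIF26B. SOX4, FZD6, DKK1, KREMEN2 and SLC12A2 did not meet this rule and were chosen after their values were seen. The members and lists were chosen with earlier results of these data known. The script was tested on simulated data. AXIN2, LGR5, NKD1, ASCL2 and ZNRF3 had no promoter in the table used.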

Additional observations from a re-analysis of the deposited data

How the results depend on the processing

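No member passed an unadjusted 0.05 when the filter, the pseudocount, the scaling or the block was changed, except LEF1, whose fitted difference was -2.54 with limma-voom, past 0.05 unadjusted, on 6 reads in the controls and 0 in the other libraries, which depends on the prior count and is no bound. Without a filter, LEF1 brought the members lower without overlap to 2. Same-numbered libraries did not deviate together (r = -0.003 over 14523 genes), so the numbers were not treated as pairs. With the replicate block, 0 members passed, other targets passing went from 5 to 3 and destruction complex genes from 3 to 0. Without a filter, 2186 genes were lower and 2192 higher (4378 in all), against 1261 and 1124 (2385), with 7 receptor genes and 2 cofactors. Where each library had to reach 1 FPKM, 52 genes fell below -1 and 69 lay above 1 at an unadjusted p below 0.05, against 88 and 118, with 3 other targets and 2 cofactors. These were 203 and 217 with a pseudocount of 0.1 and 203 and 194 with limma-voom, which called 5 destruction complex genes and 2 cofactors. The cause of these shifts was not tested, but the filters also changed which genes were tested.

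Leaving out 1 library at a time moved the differences over -0.89 to -0.13 for AXIN2, -0.28 to -0.021 for NKD1, -0.29 to 0.51 for RNF43, -0.52 to 0.43 for ZNRF3, -0.57 to 0.094 for TCF7, 0.15 to 0.38 for TCF7L2 and -0.32 to 0.071 for CTNNB1. Genes at 1 FPKM or below spanned -0.027 to 0.055 (LGR5), 0 to 0.071 (ASCL2), -0.05 to -0.02 (LEF1) and -0.17 to -0.02 (KIF26B). For genes this low the 1 FPKM added to each value holds differences near 0, so these ranges do not bound a change. Members past an unadjusted 0.05 numbered 0 to 6 lower and 0 to 2 higher (0 to 7 in all), those past it and beyond 1 numbered 0, and those past an adjusted 0.05 numbered 0 to 2. Over all genes, 234 to 3435 were lower and 265 to 3326 higher (499 to 6761), 123 to 223 and 156 to 334 of them beyond 1, and 0 to 2507 passed an adjusted 0.05. List counts spanned 3 to 12 other targets, 0 to 3 secreted inhibitors, 0 to 8 receptor genes, 0 to 8 destruction complex genes and 1 to 7 cofactors. The difference in share spanned -5.85 to -0.27 percentage points for TCF7, -1.26 to 0.16 for TCF7L1 and 0.20 to 7.19 for TCF7L2.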

Other observations

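A few further pathway genes, chosen after their values were seen, had both controls between the libraries labelled KIF26B siRNA, as RNF43, ZNRF3, TCF7 and CTNNB1 did. SOX4, a transcription factor gene, was at 13.3 and 13.6 FPKM in the controls, 35.0 in KIF-si rep1 and 8.18 in KIF-si rep2. FZD6, a Frizzled receptor, was at 14.8, 13.2, 16.3 and 4.74 FPKM in the same order. DKK1, a secreted inhibitor of the LRP co-receptors, had the opposite order, at 89.2 and 89.5 FPKM in the controls, 54.2 in KIF-si rep1 and 161.5 in KIF-si rep2. SOX4, FZD6 and DKK1 were picked because both controls lay between the libraries labelled KIF26B siRNA. That held for 15 of the 62 tested genes in the rest of the pathway and for 26.3% of all tested genes.

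KREMEN2, a receptor for DKK proteins, was at 9.74, 9.61 and 10.2 FPKM in the controls and KIF-si rep1 and at 19.9 in KIF-si rep2. SLC12A2, an ion transporter gene reported as a Wnt target, was at 16.3, 16.1 and 14.1 FPKM in those libraries and at 6.05 in KIF-si rep2. For both genes KIF-si rep1 lay outside the controls on the same side as KIF-si rep2, but nearer to them. Both genes were chosen after their values were seen.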
